A study of Bos taurus with 6 samples.

Results

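The bovine miRNAs with registry numbers of 6000 and above were examined in extracellular vesicles (EVs) released by granulosa cells. They were all miRNAs whose number after bta-miR- was 6000 or higher, with letters and arms disregarded and bta-miR-11987 left out. Of the 512 miRNAs listed in the libraries, 65 met this rule, with numbers from 6119 to 12060, and 446 carried lower numbers or were let-7 miRNAs. The 65 miRNAs stood for 61 distinct numbers: 11 were named as the 5p arm of their hairpin, 7 as the 3p arm, and 47 carried no arm in their name. The study sequenced small RNA of EVs in 3 libraries of cultures that stayed at 37 °C for 24 h (control-EVs) and 3 libraries of cultures that spent those 24 h at 42 °C (HS-EVs). The cells came from small antral follicles of slaughterhouse ovaries and were grown in medium with exosome-depleted serum, the same for both groups, and EVs were precipitated from the spent medium. No genotype or age of the cows was given, and no label tied a library to an animal or a culture, so that all p-values measure the spread between these libraries, which may in part be technical. Values are the deposited normalized read counts, scaled between libraries by TMM (a trimmed mean of log ratios), and the reads behind them, which could be recovered because every value was a whole multiple of the smallest value of its library.

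A miRNA is cut from a hairpin in a longer transcript by Drosha and Dicer, and a strand of the resulting duplex, from the 5p or the 3p arm, is kept by an Argonaute protein to guide the repression of matching mRNAs. Many hairpins lie in introns of protein-coding genes and can be transcribed together with their host. The registry miRBase hands out numbers in the order in which miRNAs are submitted, so a high number marks a late entry, and the 65 are called late miRNAs here. Families shared among animals mostly have low numbers. The bovine entries from bta-miR-2284 to bta-miR-2489 carry lower numbers and were largely found in cattle. Lettered members share the number of their family, so that it does not date each of them. These entries serve here as a second comparison beside all miRNAs with lower numbers.

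The libraries held 274434 to 2360980 reads, of which bta-miR-1246 took 59.9% to 98.6%, and 34141 to 235634 reads fell on all other miRNAs. HS-EVs replicate 1 stood apart, with 98.6% of its reads on bta-miR-1246 and the fewest other reads, so that 1 read was worth 4.11 normalized counts in it against 0.697 to 1.98 in the other libraries. All 6 granulosa and gonad miRNAs chosen as markers were listed, and together took 5.93% to 11.4% of the reads outside bta-miR-1246 in control-EVs and 6.07% to 11.2% in HS-EVs. Most of these reads were bta-miR-21-5p, a miRNA of many cell types, and the other 5 took 1.27% to 1.39% and 0.803% to 1.58%. The gonad miRNA bta-miR-202 took 1.19% to 1.29% and 0.719% to 1.49%, while bta-miR-383 and bta-miR-212 had 0 or 1 read in every library, so that the granulosa origin rests mainly on bta-miR-202 here. The liver and serum miRNAs bta-miR-122 and bta-miR-885 together took 8.70% to 15.5% in control-EVs and 5.33% to 9.72% in HS-EVs, nearly all of it bta-miR-122. The 4 leukocyte markers took 0.135% to 0.241% and 0.198% to 0.256%, the 3 red blood cell markers 0.382% to 0.912% and 0.236% to 0.586%, and the 3 striated muscle markers 0.359% to 0.590% and 0.167% to 1.12%.

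To see how much of this late annotation was found in EVs at all, the miRNA genes of RefSeq (assembly ARS-UCD2.0) were compared with the list. There were 167 RefSeq miRNA genes numbered 6000 or above, again without that of bta-miR-11987. Of these, 61 (36.5%) had a product among the 512 listed miRNAs, against 465 of 864 (53.8%) of the genes with lower numbers. The share fell with the number. In 4 ranges that start at 6000, 7000, 10000 and 11000, each ending where the next begins, it was 19 of 31 genes (61.3%), 8 of 16, 10 of 25 and 24 of 95 (25.3%). The earlier cattle entries from bta-miR-2286 to bta-miR-2489 were listed less completely than the whole late group, with 53 of 208 genes (25.5%), while 82 of 191 genes (42.9%) of the large bovine miR-2284 and miR-2285 family were listed. The number ranges were set after the values had been seen, and these shares are given as a description.

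**Figure D1:**
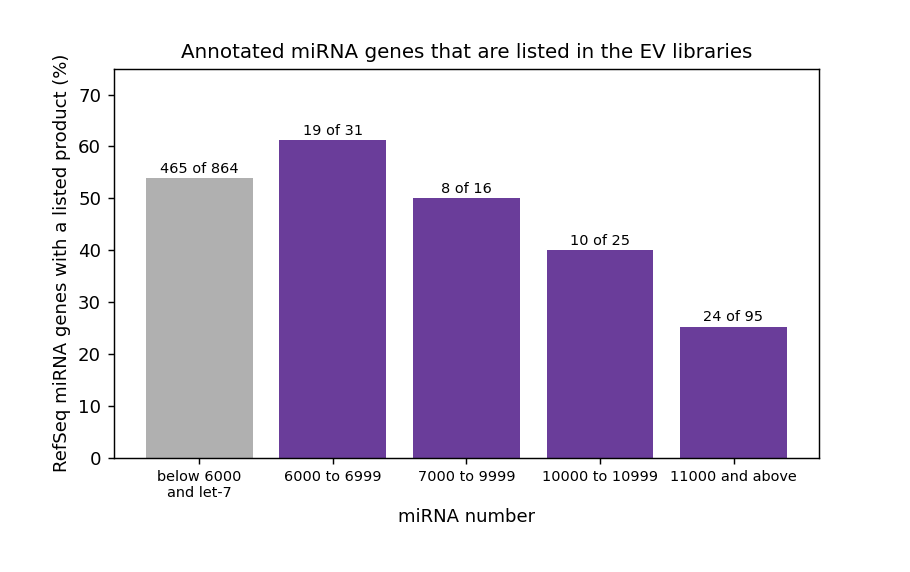
Percentage of RefSeq miRNA genes with a product among the 512 miRNAs listed in the EV libraries (vertical axis), by miRNA number (horizontal axis); labels above the bars give genes listed of genes annotated. The 4 purple bars fall from 61.3% to 25.3% with rising number, and the grey bar of lower numbers stands at 53.8%.

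Once listed, the late miRNAs were found in fewer libraries and with fewer reads than the others. At least 1 read was found for 38, 52 and 35 of the 65 miRNAs in control-EVs replicates 1, 2 and 3 and for 36, 45 and 41 in HS-EVs replicates 1, 2 and 3. As shares these were 58.5%, 80.0%, 53.8%, 55.4%, 69.2% and 63.1%, against 67.0%, 79.8%, 62.8%, 57.6%, 76.7% and 69.5% of the 446 other miRNAs. The share was lower among the late miRNAs in 5 of 6 libraries, by 5.58 ± 3.71 percentage points on average (SD, n = 6; exact sign-flip permutation test over libraries, two-sided, p = 0.0625). Among well covered miRNAs the gap was larger. At least 10 reads were found for 20.5% of the late miRNAs and 35.6% of the others on average, a difference of -15.1 ± 4.34 points with the same sign in 6 of 6 libraries (exact p = 0.031, the smallest that 6 libraries allow).

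Against the other bovine entries the late miRNAs were the more abundant group. A read was found for 48.4% of the miRNAs from bta-miR-2286 to bta-miR-2489 and for 49.7% of the miR-2284 and miR-2285 family on average, 14.9 ± 4.90 and 13.6 ± 5.76 points below the late miRNAs (SD, n = 6), in 6 of 6 libraries each (exact p = 0.031, adjusted p = 0.047 over 3 comparisons). At least 10 reads were reached by 5.65% and 11.7% of these groups against 20.5% of the late miRNAs. The median of the mean normalized read count was 1.99 for the late miRNAs, 4.24 for all others, 0.772 for bta-miR-2286 to bta-miR-2489 and 0.755 for the miR-2284 and miR-2285 family.

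**Figure D2:**
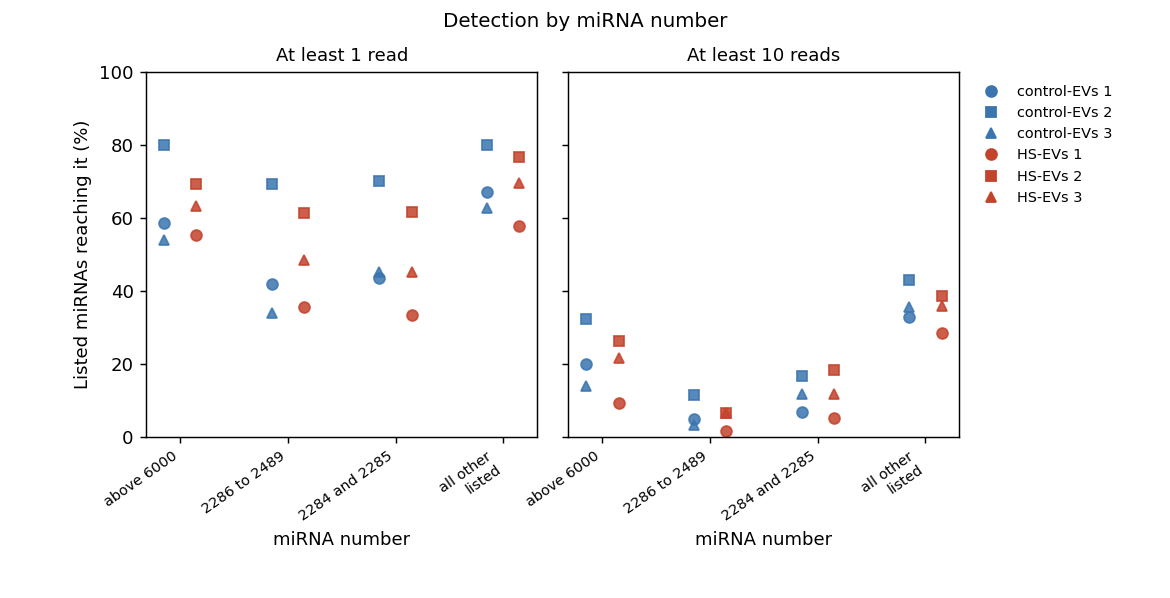
Percentage of the listed miRNAs in each number group (horizontal axis) that reached at least 1 read (left) or at least 10 reads (right) in each library; blue marks control-EVs, red HS-EVs, and the symbol gives the replicate. At 10 reads, the miRNAs numbered above 6000 lie at 9.23% to 32.3%, in each library below all other listed miRNAs, which lie at 28.5% to 42.8%.

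The study called a miRNA detected from a normalized read count of 10 in 2 libraries of a group, and 15 late miRNAs met this in HS-EVs and likewise 15 in control-EVs. Of these, 14 were shared. The miRNA bta-miR-6523a met the criterion in HS-EVs only, with 4.11, 16.5 and 16.3 normalized counts against 5.51, 9.76 and 15.8 in control-EVs. The 3p arm bta-miR-7857-3p met it in control-EVs only, with 0, 11.2 and 11.9 normalized counts against 4.11, 5.50 and 6.52 in HS-EVs. In both miRNAs the values of the groups overlapped. In all, 16 of 65 late miRNAs (24.6%) were detected in either group against 187 of 446 others (41.9%).

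The remainder of the list was sparse. Reads were present in all 6 libraries for 23 late miRNAs (35.4%, against 47.3% of the others), in a single library for 15 (23.1%, against 17.9%), and 13 had 1 read in total. A count of 10 reads was never reached by 42 of the 65 (64.6%, against 55.4%), and 28 (43.1%, close to the 41.8% of all 512) had at most 3 reads in every library, where 3 reads were taken as the floor below which a level cannot be told from none. This floor was 2.09 to 5.93 normalized counts in 5 libraries and 12.3 in HS-EVs replicate 1. Reads were collapsed by molecular tag, and intervals and floors cover counting error only.

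Few miRNAs carried most of the signal. Of 8642 reads on late miRNAs in the 6 libraries pooled, bta-miR-6529a held 37.3%, the first 2 held 62.7%, the first 6 held 83.8% and the first 15 held 94.2%. The pooled order leans on control-EVs replicate 2, which gave 1518 of the 3220 reads of bta-miR-6529a. This miRNA was first in each control-EVs library. In each HS-EVs library bta-miR-11980 was first, but with only 336 against 325 and 357 against 349 reads in replicates 2 and 3. In the order of mean normalized counts over all 512 miRNAs, bta-miR-6529a was at rank 33, bta-miR-11980 at 36, bta-miR-11976 at 66, bta-miR-12034 at 80, bta-miR-11975 at 100 and bta-miR-12030 at 103. By range of numbers, 46.5% of the pooled reads fell on the 21 miRNAs of the range that starts at 6000. The 23 late miRNAs numbered 11000 and above took 50.1%. The 8 miRNAs of the range from 7000 took 1.86% and the 13 of the range from 10000 took 1.57%. By library, the range from 6000 held 41.3%, 64.1% and 51.8% in control-EVs and 24.2%, 39.3% and 33.7% in HS-EVs. The miRNAs from 11000 held 56.4%, 32.3% and 43.5% in control-EVs and 74.0%, 56.4% and 62.4% in HS-EVs.

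The most abundant was bta-miR-6529a, whose gene lies within GSK3B, the gene of a kinase in insulin and Wnt signalling. It had 993, 1059 and 624 normalized counts in control-EVs and 703, 357 and 569 in HS-EVs (541, 1518 and 316 reads against 171, 325 and 349). The highest values were those of 2 control-EVs libraries, and the groups overlapped. On log2(normalized count + 1), the scale of all fold changes given here, the difference was -0.73 ± 0.48 (SE, limma, adjusted p = 0.873). It ran from -0.97 without control-EVs replicate 3 to -0.46 without HS-EVs replicate 2. The gene of bta-miR-6529b, not among the listed miRNAs, overlaps that of bta-miR-6529a in RefSeq, so that reads could be shared between them and the level of bta-miR-6529a alone is uncertain.

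In second place, bta-miR-11980 lies within BRAT1, the gene of a protein of the DNA damage response. It had 685, 399 and 265 normalized counts in control-EVs and 1738, 370 and 582 in HS-EVs (373, 572 and 134 reads against 423, 336 and 357). The highest value was that of HS-EVs replicate 1, and the groups overlapped. The log2 difference was 0.79 ± 0.64 (SE, limma, adjusted p = 0.873). It ran from 0.15 without that library to 1.27 without HS-EVs replicate 2. The study also lists this miRNA as higher in the heat-stressed granulosa cells themselves, whose libraries were not analysed here.

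The 4 miRNAs that followed were all numbered above 11000. The gene of bta-miR-11976 lies within PATZ1, which encodes a zinc finger transcription regulator. This miRNA had 292, 47.4 and 156 normalized counts in control-EVs and 415, 124 and 298 in HS-EVs, a log2 difference of 0.94 ± 0.72 (SE, limma, adjusted p = 0.873). The range within control-EVs was wide, and HS-EVs replicate 2 lay below 2 of the control-EVs libraries. When each library was left out in turn, the log2 difference ran from 0.22 (without control-EVs replicate 2) to 1.52 (without control-EVs replicate 1). In edgeR's quasi-likelihood test with a replicate block it was 0.92 at an adjusted p of 0.286, within the study's limit on p but short of its limit on fold.

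For bta-miR-12034, within the sorting nexin gene SNX5, the values were 270, 60.7 and 90.9 in control-EVs and 111, 110 and 227 in HS-EVs, a log2 difference of 0.29 ± 0.62. For bta-miR-11975, within MIA3, the gene of a protein for collagen export from the endoplasmic reticulum, they were 97.3, 29.3 and 53.4 against 119, 49.5 and 134, a log2 difference of 0.78 ± 0.59. For bta-miR-12030, in a long non-coding RNA gene, they were 123.0, 43.2 and 47.4 against 86.3, 64.9 and 106, a log2 difference of 0.40 ± 0.53. In each of these miRNAs the groups overlapped (SE, limma, adjusted p between 0.873 and 0.944), and control-EVs replicate 2 was the lowest library. When each library was left out in turn, the log2 difference ran from 0.36 (without control-EVs replicate 2) to 1.22 (without HS-EVs replicate 2) for bta-miR-11975. For bta-miR-12030 it ran from 0.13 (without control-EVs replicate 2) to 0.88 (without control-EVs replicate 1; limma, unadjusted p = 0.033, adjusted p = 0.534). Each of the first 6 had at least 10 reads in all 6 libraries, and no other late miRNA did.

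The next 9 miRNAs had mean levels near the detection criterion or a few times above it. The 3p arm bta-miR-6120-3p, within the casein kinase gene CSNK1G2, had 44.1, 38.4 and 47.4 normalized counts in control-EVs and 16.4, 50.6 and 68.5 in HS-EVs. The 5p arm bta-miR-6119-5p, within the ribosomal protein gene RPL39, had 38.5, 30.0 and 33.6 against 32.9, 37.4 and 53.8. These levels were steady in control-EVs. They spread more widely in HS-EVs, where replicate 1 had only 4 and 8 reads of them, and counting error was not separated from that spread.

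More variable was bta-miR-11972, within BIRC6, a gene of the inhibitor of apoptosis family, with 60.6, 6.28 and 15.8 normalized counts in control-EVs and 20.5, 23.1 and 40.7 in HS-EVs. The gene of bta-miR-6123 lies beside the imprinted gene GNAS and MIR296, and its values were 33.0, 46.0 and 17.8 against 16.4, 27.5 and 22.8. The other 5, bta-miR-10174-3p, bta-miR-7857-5p, bta-miR-11971, bta-miR-6119-3p and bta-miR-6523a, were between 4.11 and 29.3 normalized counts in every library. None of the 9 separated the groups.

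**Figure D3:**
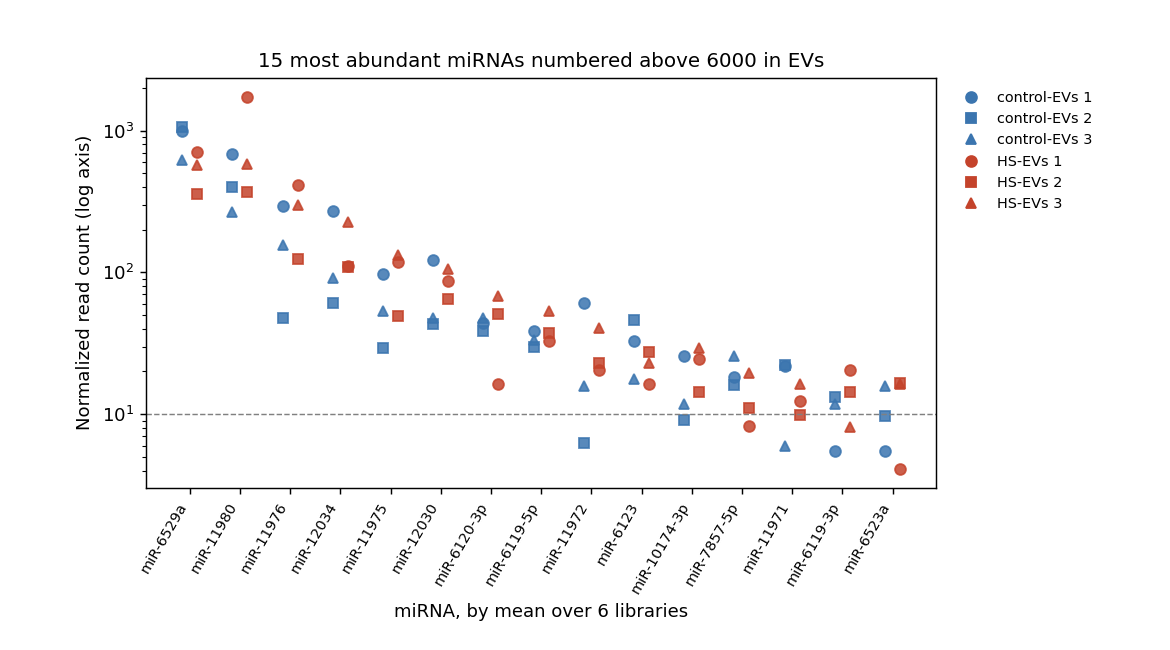
Normalized read count (vertical log axis) of the 15 most abundant miRNAs numbered above 6000, in order of their mean (horizontal axis); each point is a library, blue for control-EVs and red for HS-EVs, and the dashed line is the detection criterion of 10. The first miRNAs reach 1059 and 1738 normalized counts, and blue and red points overlap in all 15.

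Where both arms of a hairpin were listed, the same arm led in each library that had reads of unequal number. The 5p arm led in bta-miR-6119, with 156 reads against 51 (75.4%, the higher arm in 6 of 6 libraries), and in bta-miR-7857, with 70 against 32 (68.6%, 6 of 6 libraries). The 3p arm led in bta-miR-10174, with 70 reads against 7 for the 5p arm (9.09% on the 5p arm), again in 6 of 6 libraries. In bta-miR-10172 the arms had only 1 and 3 reads. No arm preference turned over between control-EVs and HS-EVs.

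The genes of 61 of the 65 miRNAs were found in RefSeq by name, and those of bta-miR-10174-5p, bta-miR-10174-3p, bta-miR-6533 and bta-miR-6775 were not. They amounted to 61 genes, since some numbers have several copies and some genes give both arms. A protein-coding gene surrounded 48 of the 61 (78.7%), against 274 of 465 (58.9%) genes of the other listed miRNAs. Another miRNA gene was found within 10 kb of 11 (18.0%), against 181 (38.9%). Most of the 11 had only a copy or an overlapping gene of the same number beside them, as in bta-miR-12005 and bta-miR-7857. Only bta-miR-6123, bta-miR-6528 and bta-miR-7858 had a gene of another number nearby. The genes of the other listed miRNAs were not sorted in this way. These shares of genes are descriptions and were not tested. Long non-coding RNA genes held 7 (11.5%) and 58 (12.5%). The table used gives no strand, and whether host and miRNA run the same way was not tested.

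Some further hosts are named for what they encode. Adrenomedullin (ADM), a vasoactive peptide, holds bta-miR-6518 (2 to 11 reads per library). The cyclooxygenase gene PTGS1 holds bta-miR-10175-5p (0 to 10 reads), the chaperone gene HSPA12A holds bta-miR-9851 (0 to 8 reads), and the fatty acid synthase gene FASN holds bta-miR-10179-5p (1 read in each of HS-EVs replicates 1 and 3). EPG5, a gene of autophagy, holds bta-miR-6523a (1 to 15 reads), and its gene overlaps that of bta-miR-6523b. These 5 hosts were picked by name after the values were known, and nothing is drawn from them about hosts in general. Both gene copies of bta-miR-7857 lie among tRNA genes.

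To determine whether the late miRNAs differed between HS-EVs and control-EVs, limma was fitted to log2(normalized count + 1) of all 512 miRNAs, with Benjamini-Hochberg adjustment over all. The study's threshold was an adjusted p up to 0.3 and a log2 fold change of at least 1 in either direction. None of the 65 passed it in limma, as none of all 512 did (0%). With edgeR, the study itself reported several miRNAs as enriched in HS-EVs, among them bta-miR-11987, which is left out here. The lowest adjusted p of a late miRNA was 0.626. At an unadjusted p of 0.05 or less stood 1 of 65 (1.54%, limma), against 4.88% of all 512 miRNAs. Normalized counts are relative within a library of bulk EV RNA, so that they give neither an amount per EV nor the kinds of EV that carried a miRNA.

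The miRNA past the unadjusted threshold was bta-miR-10161-5p, within BMERB1, with 0, 1 and 0 reads in control-EVs and 1, 2 and 1 reads in HS-EVs (limma, unadjusted p = 0.00904). It was not past this p in edgeR's quasi-likelihood test, in DESeq2 or when scaled by all reads. All 6 libraries lay below the floor of 3 reads, so that no fold is given. Its groups did not overlap in normalized counts, which was true of 2 of 65 late miRNAs (3.08%) against 6.45% of all 512. The other was bta-miR-10177-5p, within DLEU7, with 2, 5 and 3 reads in control-EVs against 0, 3 and 2 in HS-EVs. An absolute log2 difference of 1 or more was fitted for 3 of 65 (4.62%) against 11.1% of all 512. These were bta-miR-10161-5p, bta-miR-10179-5p and bta-miR-11977, each with at most 3 reads in any library.

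In direction, 30 late miRNAs had higher and 35 lower values in HS-EVs, with a median log2 difference of -0.14, against equal numbers in both directions and a median of 0.01 over all 512. In 17 of the 65, 1 group had no reads at all. With these set to the bound that 3 reads over a group allow, the median was 0 for the late miRNAs and 0 for all 512. Among the 15 most abundant, 10 were higher and 5 lower in HS-EVs, with log2 differences from -0.73 to 0.94 and a median of 0.29. By range of numbers, the median was -0.20 for the 21 miRNAs of the range from 6000, 0.24 for the 8 from 7000, -0.25 for the 13 from 10000 and 0.29 for the 23 from 11000. These directions depend on single libraries and on the scaling. Without control-EVs replicate 2, 33 of 65 were higher and the median was 0.03, without HS-EVs replicate 3 it was 0, and without control-EVs replicate 1 it was -0.01. When libraries were scaled by all reads, bta-miR-1246 included, the median over all 512 moved to -0.75, that of the late miRNAs to -0.66, and 12 of 65 were higher.

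**Figure D4:**
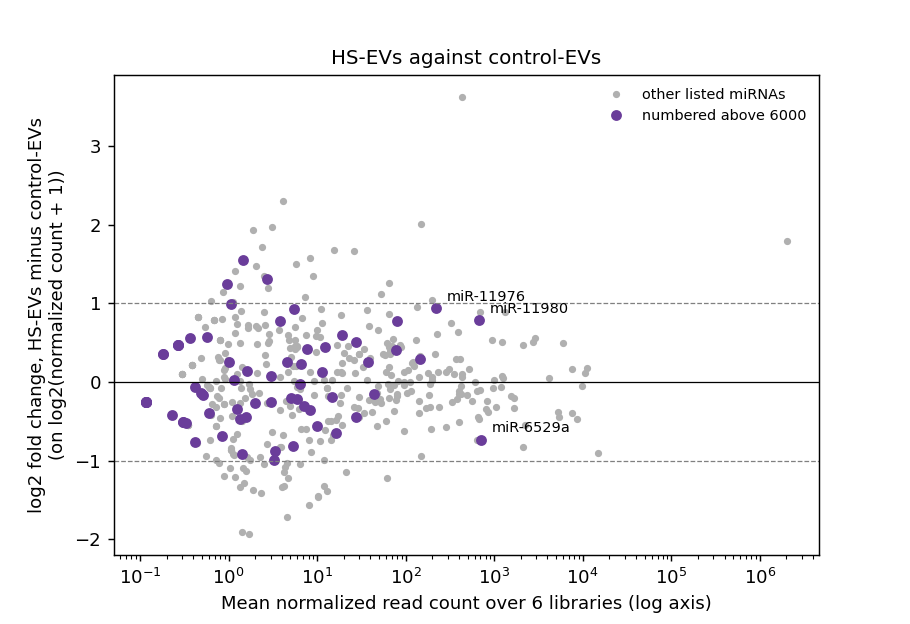
Log2 fold change of HS-EVs against control-EVs on log2(normalized count + 1) (vertical axis) against the mean normalized read count over 6 libraries (horizontal log axis), for the 65 miRNAs numbered above 6000 (purple) and the other listed miRNAs (grey); dashed lines mark -1 and 1. The 15 most abundant purple points lie between -0.73 and 0.94, and the 3 beyond the dashed lines have at most 3 reads in any library.

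As a whole, the late miRNAs took a small part of the reads in both groups. They held 2.0%, 1.20% and 1.05% of the reads outside bta-miR-1246 in control-EVs (95% Wilson interval of the first, 1.91% to 2.10%) and 2.46%, 1.03% and 1.62% in HS-EVs. The means were 1.42% ± 0.513 and 1.70% ± 0.721 (SD, n = 3), which overlapped (exact permutation test, two-sided, p = 0.7; adjusted p = 0.8 over 8 shares compared). The highest share was that of HS-EVs replicate 1. Without this library the difference turned from 0.286 to -0.0935 percentage points, so that its direction rested on that library.

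The division of these reads among the late miRNAs was examined next. Of all reads on late miRNAs, bta-miR-6529a held 35.3%, 53.7% and 41.0% in control-EVs and 20.4%, 25.7% and 24.8% in HS-EVs, with means of 43.3% ± 9.44 and 23.6% ± 2.86 (SD, n = 3). Conversely, bta-miR-11980 held 24.3%, 20.2% and 17.4% in control-EVs and 50.4%, 26.5% and 25.4% in HS-EVs, with means of 20.6% ± 3.49 and 34.1% ± 14.1. The groups did not overlap in either share (exact permutation test, two-sided, p = 0.1 for each, the smallest that 3 against 3 libraries allow; adjusted p = 0.15 over 3 shares). The other 63 miRNAs together held 36.0% ± 8.67 and 42.3% ± 11.3 (exact p = 0.5). The shares add up to the whole, so that a lower share of bta-miR-6529a raises the others.

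Thus bta-miR-6529a was in first and bta-miR-11980 in second place among late miRNAs in all 3 control-EVs libraries, and the order was turned around in all 3 HS-EVs libraries. The ratio of their reads, which no scaling between libraries can change, was 1.45, 2.65 and 2.36 in control-EVs and 0.404, 0.967 and 0.978 in HS-EVs. In HS-EVs replicates 2 and 3 the reads of both were nearly equal, with overlapping Wilson intervals. Among HS-EVs the order was clear only in replicate 1. The mean log2 ratio was 1.06 ± 0.462 in control-EVs and -0.46 ± 0.731 in HS-EVs (SD, n = 3), a difference of -1.52 (exact permutation test, two-sided, p = 0.1, again the smallest possible). Without HS-EVs replicate 1 the difference was -1.10. The ratio was chosen after the values had been seen, and this exact test cannot go below 0.1 with 3 libraries against 3. The liver and serum markers, bta-miR-122 foremost, had shares that were also lower in most HS-EVs libraries (5.33% to 9.72% against 8.70% to 15.5%), and their part in the ratio was not tested.

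**Figure D5:**
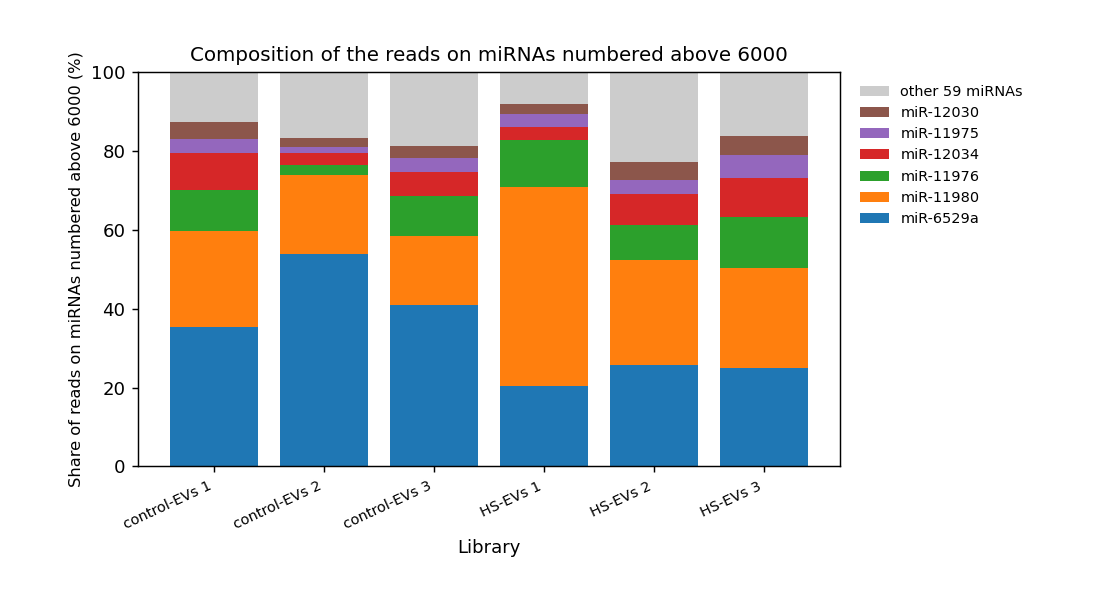
Share of the reads on miRNAs numbered above 6000 (vertical axis, percent) held by the 6 most abundant and by the other 59, for each library (horizontal axis). The blue part, bta-miR-6529a, takes 35.3% to 53.7% in control-EVs and 20.4% to 25.7% in HS-EVs, and the orange part, bta-miR-11980, 17.4% to 24.3% and 25.4% to 50.4%.

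As parts of the reads outside bta-miR-1246, neither miRNA separated the groups. For bta-miR-6529a the shares were 0.706%, 0.644% and 0.430% in control-EVs and 0.501%, 0.263% and 0.403% in HS-EVs (exact permutation test, p = 0.2, adjusted p = 0.6). For bta-miR-11980 they were 0.487%, 0.243% and 0.182% against 1.24%, 0.272% and 0.412% (exact permutation test, p = 0.4, adjusted p = 0.64). The late miRNAs numbered 11000 and above, bta-miR-11987 left out, together held 0.657% ± 0.410 in control-EVs and 1.14% ± 0.631 in HS-EVs (SD, n = 3, exact permutation test, p = 0.3). The range that starts at 6000 held 0.712% ± 0.150 and 0.515% ± 0.0993 (exact permutation test, p = 0.3).

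The study lists some late miRNAs as differentially expressed in heat-stressed granulosa cells, a list without the unchanged miRNAs of these cells. There bta-miR-11980 and bta-miR-6523a were higher under heat stress, and bta-miR-12030 and bta-miR-6120-3p lower. Of the late miRNAs on that list, 8 were also listed in the EVs, and bta-miR-6121-3p was not among the 512. Apart from bta-miR-11980, bta-miR-12030, bta-miR-6120-3p and bta-miR-6523a, described above, they were barely found. A range of 0 to 3 reads per library was seen for bta-miR-11977, 0 to 4 for bta-miR-12057 and 0 or 1 for bta-miR-10176-5p, while bta-miR-6775 had a single read, in control-EVs replicate 2. None of these 4 passed the study's threshold. The lowest p among them was that of bta-miR-11977 (limma, unadjusted p = 0.0572, adjusted p = 0.873), whose reads were at or under the floor of 3 in every library.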

How the data were processed

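Small RNA libraries of EVs (3 control-EVs, 3 HS-EVs, grouped by the temperature in the labels) had been made with unique molecular identifiers. The authors trimmed adapters with cutadapt (1.11), collapsed reads with equal identifiers, mapped them with Bowtie2 (2.2.2) to the bovine genome (UMD 3.1, per the submitters' notes) and to miRBase, and normalized by TMM in edgeR. The deposited values are TMM-normalized read counts, treated as a signal and not as raw counts. Divided by the lowest nonzero value of its library, 100% of values came out whole (largest distance 0.000199, tolerance 0.001), and that value was taken as 1 read. Read numbers are too low where it stood for several. In every library the recovered total exceeds the reads on annotated miRNAs that a supplement of the study lists, a difference that was not resolved, so that intervals and floors hold only if 1 step is 1 molecule. The recovered totals were 274434 to 2360980 reads, and intervals are 95% Wilson intervals.

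The 65 miRNAs and all lists were chosen with earlier results of these data known. All 512 miRNAs were fitted with limma (3.58.1, R 4.3.3, lmFit and eBayes) on log2(value + 1) without a filter. On simulated data, 200 of the 512 miRNAs were changed by 2 on the log2 scale in 10 sets. Limma at the study's threshold recovered 48.4% of these changes, and 7.41% of its calls were wrong. This average covers all 512 miRNAs with 200 changed at once, so it does not give the power for the sparser 65. Shares were compared by exact permutation (scipy 1.17.1). Named were the 15 most abundant of the 65 and those with an unadjusted p of 0.05 or less. Also named were those with groups that did not overlap, those the study lists as differentially expressed in granulosa cells, and hairpins with both arms. Others are named for their host gene, their fold or the detection criterion, after their values were seen. Genes came from RefSeq (ARS-UCD2.0). As that differs from the build used by the authors, no positions are given. Alternatives were other pseudocounts, filters and scalings, edgeR (4.0.16) and DESeq2 (1.42.0) on recovered reads, a replicate block and leaving out each library.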

Additional observations from a re-analysis of the deposited data

How the results depend on the processing

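None of the 65 miRNAs passed the study's threshold under any alternative run. Of all 512, 8 passed it in edgeR's quasi-likelihood test with a replicate block, 3 in that test without it, 1 with a pseudocount of 0.5, 4 without control-EVs replicate 2, 2 without HS-EVs replicate 1 and 3 without HS-EVs replicate 2, and none in the other runs. The number at an unadjusted p of 0.05 or less, given with the share of all miRNAs tested, was 1 in limma (bta-miR-10161-5p, 4.88%) and 1 in edgeR's quasi-likelihood test, there bta-miR-11980 (log2 difference 0.95, unadjusted p = 0.016, adjusted p = 0.635; 5.08%). It was 0 with a filter on low values (18 of the 65 tested, 5.24%), 0 in DESeq2 (1.95%), 3 when scaled by all reads (bta-miR-6524, bta-miR-6525 and bta-miR-6529a, 3.52%) and 2 when scaled by reads outside bta-miR-1246 (5.27%). It was 1 to 3 when each library was left out in turn (3.91% to 8.40%). With a replicate block the number was 2 in limma (5.86%) and 4 in edgeR's quasi-likelihood test (5.47%; bta-miR-6529a, bta-miR-11975, bta-miR-11976 and bta-miR-11980, lowest adjusted p = 0.286, for bta-miR-11976, which met the adjusted limit of 0.3 there but not the fold, at 0.92). In limma, bta-miR-11977 was the added miRNA both with the block and with scaling outside bta-miR-1246. Deviations of same-numbered libraries correlated at 0.14, 0.14 and 0.08, each library best with its own number. The last pair fell under the 0.1 asked for, so the numbers were not taken to pair the libraries.

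Scaling by all reads, in which bta-miR-1246 dominates, turned the log2 differences of bta-miR-11980 to -0.74, bta-miR-11976 to -0.58, bta-miR-12034 to -1.19, bta-miR-11975 to -0.70 and bta-miR-12030 to -1.06, and that of bta-miR-6529a from -0.73 to -2.26 (limma, unadjusted p = 0.040, adjusted p = 0.673). It likewise turned the difference in the share of reads to -0.177 percentage points (exact permutation p = 0.1). Leaving out control-EVs replicate 2 or HS-EVs replicate 3 turned bta-miR-12034 to -0.16 and -0.05. Over leave-one-out runs its log2 difference was between -0.16 and 0.91, and the difference in the share of reads was between -0.0935 and 0.624 points, lowest without HS-EVs replicate 1.

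The number detected rose from 15 to 40 in HS-EVs and from 15 to 41 in control-EVs when 1 read in 2 of 3 libraries was enough. The gap to lower-numbered miRNAs in the share with a read was -5.58 points. It was -10.7 at 3 reads, -15.1 at 10 reads and -8.48 with all libraries thinned to 34141 reads (exact p = 0.031 for each), and -6.73 to -4.90 when each library was left out. The log2 ratio of bta-miR-6529a to bta-miR-11980, chosen after the values were seen, differed by -1.79 to -1.10 in leave-one-out runs, and by exact sign flips within same-numbered pairs, a replicate block, its p was 0.25, the smallest that 3 pairs allow. Few reads stood behind most values: 42 of the 65 miRNAs (64.6%, against 55.4% of the others) never reached 10 reads.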
